A study of Homo sapiens with 32 samples.

Results

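MAP kinase phosphatases are dual-specificity phosphatases (DUSPs) that switch off the kinases ERK, JNK and p38. The 10 genes DUSP1, DUSP2, DUSP4, DUSP5, DUSP6, DUSP7, DUSP8, DUSP10, DUSP14 and DUSP16 were taken by symbol from all 6 count tables of an RNA-seq study of human prostate cancer cell lines. All 10 were found in every table, among 57445 gene entries in each of 4 tables, 21549 in the LNCaP inhibitor table and 16603 in the C4-2 inhibitor table. The list was drawn up with the treated and control levels of these genes in view, and DUSP5 was known to be higher after treatment in every line and experiment. Their differences between treated and control libraries, and between cell lines, are therefore given as a description with no p-value. P-values are given for other genes only. The lists of other genes were also chosen with earlier results of these data known.

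A MAP kinase is active when a threonine and a tyrosine in its activation loop both carry phosphate, and a MAP kinase phosphatase removes both. Many of these phosphatase genes are themselves transcribed when MAP kinases are active, which makes them negative feedback genes. DUSP5 is a nuclear phosphatase of ERK, DUSP6 and DUSP7 act on ERK in the cytoplasm, DUSP1, DUSP2 and DUSP4 are inducible nuclear enzymes with wider targets, DUSP8, DUSP10 and DUSP16 act mainly on JNK and p38, and DUSP14 is a small atypical member.

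The study asked how loss of CSN5 function changes prostate cancer cells. The gene COPS5 encodes CSN5, the protease of the COP9 signalosome, a complex that strips NEDD8 off cullins and so resets ubiquitin ligases. For knockdown, cells of the lines LNCaP, C4-2, 22Rv1 and PC3 received a scramble shRNA or shCSN5. In the inhibitor experiment LNCaP and 22Rv1 cells received DMSO or CSN5i-3, an inhibitor of CSN5, at 5 µM, and PC3 cells received DMSO or CSN5i-3 at 10 µM. The C4-2 inhibitor libraries carry opposite labels: those titled C5i are described as DMSO treated, and those titled NT are described as given 1 µM CSN5i-3. They are grouped by title here and called titled C5i and titled NT, so that any direction in them rests on the titles. One characteristic of PC3 shCSN5 replicate 2 reads as drug treated, while its title and description name shCSN5.

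Each of the 16 groups held 2 libraries. LNCaP is a line from a lymph node metastasis, C4-2 was derived from it, 22Rv1 came from a xenograft and PC3 from a bone metastasis. Nothing in the labels says that replicates came from separate cultures, so the errors below measure the spread between libraries, which may be technical. The labels give no treatment time.

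Promoter sequences are shown for 3 members to compare one gene with a single cAMP response element, one with 2 and one with none. They are the 250 bases before the RefSeq start (GRCh38.p14), 5′ to 3′ on the gene's strand, with matches to the motifs in capitals. DUSP1 lies at chr5:172771196-172771445 on the minus strand, DUSP8 at chr11:1572272-1572521 on the minus strand and the first DUSP10 entry at chr1:221742090-221742339 on the minus strand.
DUSP1: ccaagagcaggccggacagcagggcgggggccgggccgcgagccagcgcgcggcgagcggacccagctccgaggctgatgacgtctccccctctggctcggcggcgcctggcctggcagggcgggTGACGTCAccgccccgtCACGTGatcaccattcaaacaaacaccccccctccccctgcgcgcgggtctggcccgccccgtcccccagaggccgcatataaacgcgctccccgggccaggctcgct
DUSP8: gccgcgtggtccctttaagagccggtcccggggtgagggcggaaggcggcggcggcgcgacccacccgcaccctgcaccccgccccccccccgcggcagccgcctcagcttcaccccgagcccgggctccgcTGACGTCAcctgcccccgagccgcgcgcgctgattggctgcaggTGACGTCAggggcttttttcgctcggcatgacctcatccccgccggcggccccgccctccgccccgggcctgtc
DUSP10: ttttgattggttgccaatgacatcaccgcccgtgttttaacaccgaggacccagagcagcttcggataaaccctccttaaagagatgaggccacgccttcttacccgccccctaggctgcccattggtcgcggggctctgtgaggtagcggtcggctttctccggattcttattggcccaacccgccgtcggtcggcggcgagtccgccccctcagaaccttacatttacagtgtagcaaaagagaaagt

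Promoters were matched for 8 of the 10 members; DUSP4 and DUSP5 have none in the table used. Both strands of the window from 250 bases before to 50 bases after the start were searched for AP-1 (TGANTCA), the cAMP response element (TGACGTCA), ETS (CCGGAAG), the CArG box and an E-box (CACGTG), and no match overlapped another. DUSP1 held the cAMP response element at base -125 and the E-box at -108, DUSP8 held the cAMP response element at -118 and -74, and DUSP2 held the E-box at -113. DUSP6, DUSP7, DUSP10, DUSP14 and DUSP16 held none of the 5. Of 35116 promoters of this length, 1.85% held the cAMP response element, 7.26% the E-box, 7.71% AP-1, 10.3% ETS and 1.29% the CArG box. A match is a description of these letters only.

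The knockdown libraries held 20607109 to 32473540 counted reads and the inhibitor libraries 29477194 to 50924252. COPS5 fell in every shCSN5 comparison, with log2 fold changes of -4.50 ± 0.26 in LNCaP, -3.56 ± 0.12 in C4-2, -2.68 ± 0.11 in 22Rv1 and -3.18 ± 0.12 in PC3 (SE, n = 2 per group; edgeR quasi-likelihood test, Benjamini-Hochberg adjusted p at most 0.0022). KLK3, the gene of prostate-specific antigen, was at most 0.0651 CPM (counts-per-million) in PC3, against a lowest value of 39.0 in the other lines. The T cell gene CD3E was at or under 0.0386 CPM in every library of the tables that list it. The summed level of 5 luminal prostate markers was lower in treated libraries in each comparison, though single markers went both ways: 2 rose and 2 fell in 22Rv1, and 1 rose and 2 fell in LNCaP and in C4-2, with shCSN5, and 2 rose and 1 fell in 22Rv1 with CSN5i-3. All 5 fell in LNCaP with CSN5i-3, and 4 fell and 1 rose in titled C5i. The sums were 925 to 942 CPM after CSN5i-3 against 4067 to 4221 with DMSO in LNCaP, 927 to 949 in titled C5i against 4556 to 4574 in titled NT, 636 to 742 against 998 to 1016 in 22Rv1, and 113 to 117 against 403 to 409.8 in PC3. CD68, a macrophage gene, made up a leukocyte marker sum of 51.1 to 52.5 CPM in titled C5i against 6.78 to 6.80 in titled NT, and of 24.6 to 25 against 0.279 to 0.358 in LNCaP with CSN5i-3. The sum of the PC3-type markers went from 3.12 to 3.5 CPM with DMSO to 22.2 to 22.8 with CSN5i-3 in LNCaP, and from 26.9 to 29.4 with scramble to 62.9 to 66.4 with shCSN5 in 22Rv1. The fibroblast marker sum was 14.3 to 14.7 CPM with CSN5i-3 against 54.6 to 57.9 with DMSO in PC3, and 19.6 to 19.8 in titled C5i against 3.16 to 4.61 in titled NT. The part of these shifts in the phosphatase values was not tested. In bulk RNA, fewer cells of a type and less RNA per cell cannot be told apart.

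DUSP5, the nuclear ERK phosphatase, was higher in all 16 treated libraries than in the controls of the same line and experiment. This was known when the list was drawn up, and the count takes the titled C5i libraries of C4-2 as treated. In LNCaP the CPM of DUSP5 went from 1.69 and 1.56 with scramble to 11.8 and 12.5 with shCSN5, and from 2.79 and 2.74 with DMSO to 97.0 and 98.2 with CSN5i-3. In 22Rv1 it went from 1.07 and 0.990 to 15.8 and 15.1 with shCSN5, and from 0.773 and 0.648 to 32.4 and 31.0 with CSN5i-3. In both lines no treated library overlapped the controls of the same experiment.

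The fold changes of DUSP5 in these lines were 7.43 (log2 2.89 ± 0.19) and 14.9 (log2 3.90 ± 0.18) for shCSN5 in LNCaP and 22Rv1. For CSN5i-3 they were 35.2 (log2 5.14 ± 0.09) and 44.3 (log2 5.47 ± 0.23). C4-2 held 3.09 and 2.62 CPM with shCSN5 against 1.16 and 0.544, a fold of 3.31 that moved from 1.30 to 2.38 on the log2 scale as single libraries were left out, around 1.73 ± 0.32. The titled C5i libraries of C4-2 held 58.1 and 62.1 CPM against 3.13 and 2.70 in titled NT, or 20.6-fold.

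In PC3 DUSP5 was 172 and 177 CPM with scramble and 285 and 283 with DMSO, and reached 408 and 414 with shCSN5 and 552 and 558 with CSN5i-3. The folds were 2.35 (log2 1.23 ± 0.09) and 1.96 (log2 0.97 ± 0.02). Levels in the knockdown and inhibitor tables were scaled separately, so the 2 sets of controls are not compared.

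**Figure D1:**
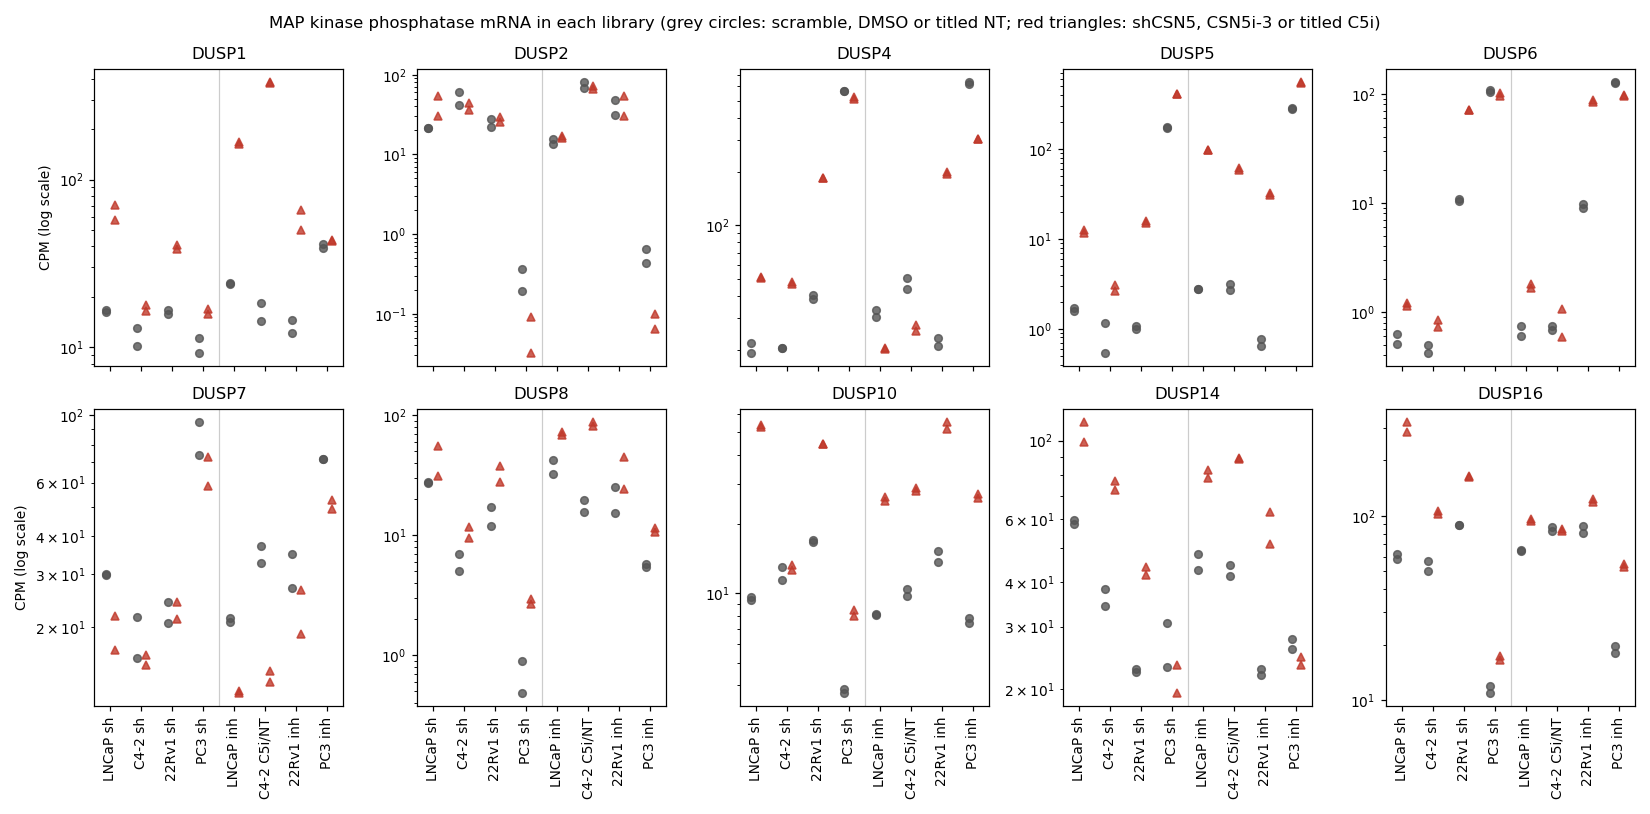
CPM (log axis, own range per gene) of the 10 phosphatase genes in each library; each x position is 1 cell line and experiment, grey circles are scramble, DMSO or titled NT libraries and red triangles are shCSN5, CSN5i-3 or titled C5i libraries. For DUSP5 every triangle lies above the circles beside it, also in PC3, where the circles lie at 172 and 177 in the knockdown.

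DUSP6, the cytoplasmic ERK phosphatase and a common readout of ERK signalling, was higher after treatment in LNCaP and 22Rv1 and slightly lower in PC3. 22Rv1 held 10.4 and 10.9 CPM with scramble and 70.9 and 71.9 with shCSN5 (fold 6.69, log2 2.74 ± 0.10), and 9.76 and 8.93 with DMSO against 84.1 and 87.4 with CSN5i-3 (fold 9.17). LNCaP and C4-2 held little DUSP6: LNCaP went from 0.511 and 0.626 to 1.14 and 1.22 with shCSN5 and from 0.737 and 0.596 to 1.65 and 1.80 with CSN5i-3. C4-2 went from 0.425 and 0.502 to 0.733 and 0.849 with shCSN5, without overlap.

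The titled C5i libraries of C4-2, at 0.595 and 1.06 CPM, overlapped titled NT at 0.739 and 0.681. Without titled C5i replicate 2 the log2 difference there went from 0.21 to -0.26. In PC3, where DUSP6 was abundant, it stood at 102 and 94.9 with shCSN5 against 109 and 105, and at 97.9 and 95.2 with CSN5i-3 against 128 and 125. The PC3 difference was log2 -0.12 ± 0.10 for shCSN5 and -0.39 ± 0.03 for CSN5i-3.

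DUSP7, the other cytoplasmic ERK phosphatase, did not share the direction of DUSP5 and DUSP6. It was lower without overlap after CSN5i-3 in LNCaP (12.2 and 12.4 CPM against 20.9 and 21.6), in 22Rv1 (26.6 and 19.1 against 26.9 and 35.0) and in PC3 (49.2 and 52.6 against 71.6 and 71.8). Titled C5i stood at 14.3 and 13.3 against 37.1 and 32.5 in titled NT, which is 0.397 times that level. With shCSN5 it was 0.649 times the scramble level in LNCaP and 0.778 times in PC3, and the libraries overlapped in C4-2 and 22Rv1. The log2 difference in LNCaP was -0.62 ± 0.18.

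DUSP1, an immediate early gene whose product acts on JNK and p38 as well as ERK, was higher in treated libraries of every line. It went from 16.2 and 16.7 CPM to 57.2 and 71.1 with shCSN5 in LNCaP (fold 3.90, log2 1.96 ± 0.17) and from 16.8 and 15.9 to 40.6 and 38.5 in 22Rv1 (fold 2.43). CSN5i-3 gave 167 and 164 against 24.2 and 23.9 in LNCaP (fold 6.88, log2 2.78 ± 0.07) and 66.2 and 49.9 against 12.2 and 14.5 in 22Rv1 (fold 4.34). The titled C5i libraries held 374 and 382 CPM against 18.5 and 14.3, or 23.1-fold (log2 4.53 ± 0.11).

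PC3 and C4-2 showed smaller DUSP1 differences with shCSN5. PC3 stood at 15.9 and 17 CPM against 9.31 and 11.3 (fold 1.59), and C4-2 at 18 and 16.5 against 10.2 and 13.1 (fold 1.48). With CSN5i-3 in PC3 the levels were 43.4 and 43.2 against 39.3 and 41.2, a fold of 1.08 with no overlap.

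DUSP4, a nuclear phosphatase that is also an ERK feedback gene, was the member whose direction depended most on line and agent. It was higher with shCSN5 in LNCaP (51.2 and 50.5 CPM against 19.3 and 21.8), in C4-2 (46.7 and 47.8 against 20.5 and 20.5) and in 22Rv1 (185 and 183 against 38.4 and 40.7). In 22Rv1 it was also higher with CSN5i-3, 198 and 193 against 23.3 and 21.1, or 8.82-fold (log2 3.14 ± 0.15). LNCaP went the other way with CSN5i-3, 20.2 and 20.6 against 30.4 and 33.6, or 0.637 times the control.

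Titled C5i in C4-2 was also lower in DUSP4, 25.4 and 27.6 against 50.6 and 43.7 CPM. PC3 held 564 and 562 CPM with scramble and 512 and 522 with shCSN5, and 635 and 623 with DMSO and 304 and 303 with CSN5i-3. Its log2 difference was thus -0.12 ± 0.08 for shCSN5 and -1.05 ± 0.02 for CSN5i-3. The directions of the knockdown and of the inhibitor differed in LNCaP, and this difference was not tested because the experiments lie in separate tables.

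DUSP2, a nuclear phosphatase best known from immune cells, was higher with shCSN5 in LNCaP, where the treated libraries were unequal. They held 30.1 and 54.9 CPM against 21.3 and 21.5 (fold 1.99, log2 0.99 ± 0.29), and the log2 difference was 0.50 without shCSN5 replicate 2. With CSN5i-3 LNCaP stood at 16 and 17.1 against 13.7 and 15.4, and in C4-2 and 22Rv1 the DUSP2 libraries overlapped in both experiments. In PC3 it was nearly absent: 6 and 9 reads with scramble and 3 and 1 with shCSN5, below the filter for testing, and 33 and 21 reads with DMSO against 3 and 4 with CSN5i-3 (log2 -2.71 ± 0.52).

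Among the JNK and p38 phosphatases, DUSP10 was higher without overlap in every comparison except shCSN5 in C4-2. In LNCaP it went from 9.39 and 9.63 CPM to 53.0 and 54.1 with shCSN5 (fold 5.63, log2 2.49 ± 0.15) and from 8.15 and 8.08 to 26.1 and 25.1 with CSN5i-3 (fold 3.15). In 22Rv1 it went from 16.8 and 17 to 44.6 and 44.3 and from 15.2 and 13.7 to 55.4 and 51.9. In PC3 it went from 3.83 and 3.71 to 7.94 and 8.43 (fold 2.17) and from 7.78 and 7.44 to 25.8 and 26.9 (fold 3.46).

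DUSP10 in C4-2 stood at 12.6 and 13.3 CPM with shCSN5 against 13 and 11.5, a log2 difference of 0.08 ± 0.15 with overlapping libraries. The titled C5i libraries held 27.8 and 28.6 against 10.4 and 9.69 in titled NT. In PC3 DUSP10 had the highest CSN5i-3 fold of the 10 members, 3.46, while its fold in LNCaP and 22Rv1 was below those of DUSP5 and DUSP1.

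DUSP16, a JNK phosphatase, was most different with shCSN5 in LNCaP, 323 and 285 CPM against 58.6 and 61.8 (fold 5.05, log2 2.34 ± 0.13). It was also higher with shCSN5 in C4-2 (102 and 106 against 56.6 and 50.5), 22Rv1 (164 and 163 against 88.7 and 89.1) and PC3 (16.6 and 17.4 against 11 and 11.9). With CSN5i-3 the fold was 2.86 in PC3 (52.9 and 54.9 against 19.7 and 18), 1.47 in LNCaP and 1.43 in 22Rv1. In C4-2 titled C5i, at 84.9 and 82.3, overlapped titled NT at 83.1 and 87.2.

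DUSP8, the remaining JNK and p38 phosphatase, had its largest shCSN5 fold in PC3, on few reads. There it went from 0.487 and 0.897 CPM, or 15 and 22 reads, to 2.66 and 2.93, or 88 and 90 reads (fold 4.11, log2 2.04 ± 0.30). Titled C5i held 81.2 and 87.7 against 19.8 and 15.7 (fold 4.77), and CSN5i-3 gave 71.9 and 68.3 against 32.2 and 42.7 in LNCaP. In LNCaP shCSN5 replicates differed, 30.9 and 55.4 against 28.0 and 27.1, and the log2 difference of 0.65 was 0.17 without replicate 2 of shCSN5. In C4-2 and 22Rv1 the shCSN5 folds were 1.76 and 2.26 without overlap, and with CSN5i-3 the 22Rv1 libraries overlapped.

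DUSP14, the atypical member, was higher in LNCaP, C4-2 and 22Rv1 and lower or overlapping in PC3. With shCSN5 it stood at 99.0 and 113 CPM against 59.7 and 58.1 in LNCaP, at 76.8 and 72.4 against 34.4 and 38.3 in C4-2 and at 44.0 and 41.9 against 22.4 and 22.8 in 22Rv1. These are folds of 1.80, 2.05 and 1.90, a narrower span than for any other member that was higher in all 3 lines. PC3 shCSN5, at 19.6 and 23.3, overlapped scramble at 23.1 and 30.7, and CSN5i-3 gave 23.4 and 24.6 against 25.9 and 27.7. The CSN5i-3 folds were 1.77 in LNCaP and 2.56 in 22Rv1, and titled C5i was 2.06 times titled NT, all without overlap.

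Counted over members, 9 were higher and 1 lower without overlap with shCSN5 in LNCaP, where 36.1% of all tested genes were higher and 36.6% lower in that way. In C4-2 7 were higher and 0 lower (31.9% and 34.2%), in 22Rv1 8 and 0 (36.7% and 35.1%), and in PC3 5 and 3 of the 9 tested (35% and 27.1%). With CSN5i-3, 8 were higher and 2 lower in LNCaP (38.7% and 38.8%), 7 and 1 in 22Rv1 (30.4% and 33.2%) and 5 and 5 in PC3 (43.2% and 44.1%). Titled C5i had 5 higher and 2 lower (43.1% and 44.4%). Since the list was chosen on these differences, the counts say nothing about whether the members differ from other genes.

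The median log2 difference of the members was 1.18 in LNCaP, 0.79 in C4-2, 1.23 in 22Rv1 and 0.57 in PC3 for shCSN5, and 0.86, 1.62 and -0.03 in LNCaP, 22Rv1 and PC3 for CSN5i-3. It was 0.63 for titled C5i minus titled NT. The median over all tested genes lay between -0.04 and 0.04 in these comparisons. Scaling by total counts instead of the trimmed mean of M values left 1 member lower and not 3 in PC3 with shCSN5, 7 higher and not 8 in LNCaP with CSN5i-3, and 4 lower and not 2 for the C4-2 titles. No member's log2 difference changed sign under total-count scaling or DESeq2.

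**Figure D2:**
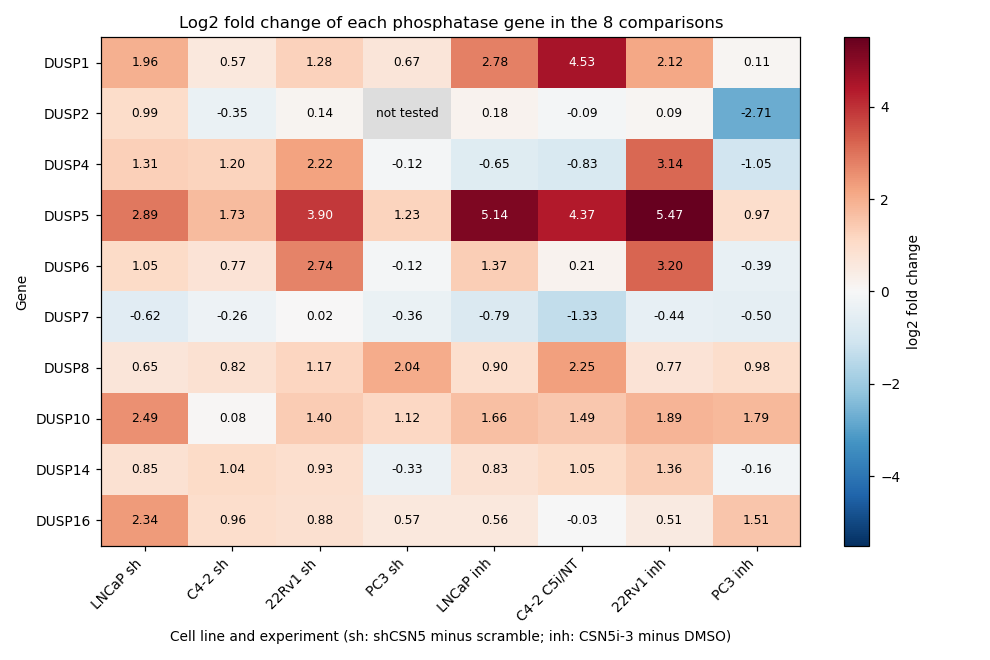
Log2 fold change (colour and printed value) of each phosphatase gene (rows) in the 8 comparisons of treated with control libraries (columns), from edgeR with 2 libraries per group; grey marks DUSP2 in PC3 with shCSN5, which did not pass the filter on low counts. The DUSP5 row is positive throughout, from 0.97 to 5.47, and the DUSP7 row is the only one with no value above 0.02.

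The scramble libraries compare the lines before CSN5 loss. The levels of the members in these libraries were in view when the list was made. In PC3 against LNCaP, sequenced in one table, no member overlapped between the lines. Of all genes tested there, 41.6% were called higher and 38.2% lower in PC3 by edgeR adjusted p under 0.05, 79.7% in all. Differences between these lines were thus common, and nothing is read from the separation of the members. DUSP6, DUSP5 and DUSP4, all ERK feedback genes, were 177-fold (log2 7.47 ± 0.15), 101-fold (log2 6.65 ± 0.12) and 25.8-fold (log2 4.69 ± 0.10) higher in PC3, and DUSP7 was 2.67-fold higher. The other 6 were lower in PC3. DUSP2 was lower by log2 -6.36 ± 0.24 and DUSP8 by -5.43 ± 0.24, and DUSP16, DUSP10, DUSP14 and DUSP1 by -2.48, -1.42, -1.22 and -0.76.

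In 22Rv1 against C4-2, DUSP6 was 20.6-fold higher in 22Rv1 (log2 4.37 ± 0.22). DUSP8, DUSP4 and DUSP16 were higher there by log2 1.12, 0.80 and 0.59, DUSP1 and DUSP10 by 0.34 and 0.32, and DUSP2 and DUSP14 were lower by log2 -1.18 and -0.83. DUSP5, at log2 0.12 ± 0.38, and DUSP7, at 0.11 ± 0.20, overlapped between the lines.

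The shCSN5 change was also compared between the lines of each knockdown table, as the difference of the log2 fold changes. PC3 minus LNCaP was lower in PC3 by an interaction term past the threshold for 8 of 10 members, where 13.1% of all genes were called lower and 11% higher; nothing is read from this count, since the change in each line was known when the members were chosen. The differences were log2 -1.83 ± 0.15 for DUSP16, -1.72 ± 0.15 for DUSP5, -1.49 ± 0.13 for DUSP4, -1.44 ± 0.18 for DUSP10, -1.35 ± 0.22 for DUSP1, -1.24 ± 0.22 for DUSP6 and -1.23 ± 0.23 for DUSP14. For DUSP2 it was -3.10 ± 0.89, on the few PC3 reads given above. DUSP8 had a higher estimate in PC3, log2 1.33 ± 0.48, and DUSP7 gave 0.20 ± 0.26.

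For 22Rv1 minus C4-2 the same count was 4 members higher in 22Rv1, where 5.53% of all genes were called higher and 7.76% lower. They were DUSP5 (log2 2.15 ± 0.38), DUSP6 (1.95 ± 0.27), DUSP10 (1.29 ± 0.14) and DUSP4 (0.99 ± 0.10). DUSP1 gave 0.69 ± 0.20, and DUSP14 gave -0.13 ± 0.13 and DUSP16 -0.11 ± 0.09. Nothing is read from this count or from which members passed, since the change in each line was known beforehand.

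**Figure D3:**
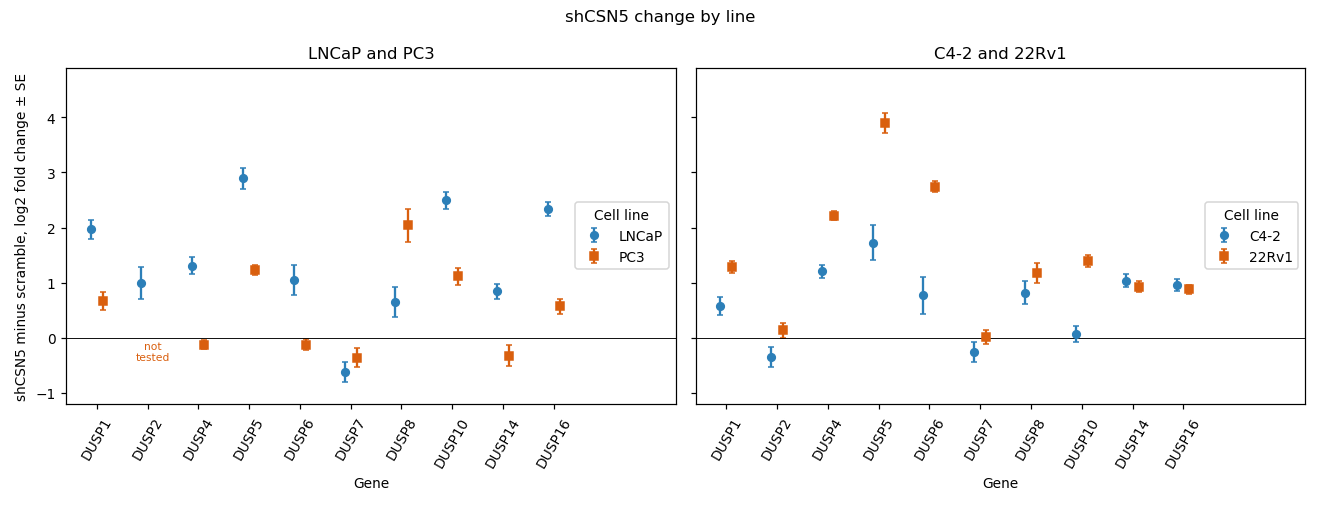
Log2 fold change of shCSN5 over scramble (points) with its standard error (bars), n = 2 libraries per group, for LNCaP and PC3 (left) and for C4-2 and 22Rv1 (right). DUSP2 has no point for PC3. In the left panel the PC3 points lie below LNCaP for DUSP1, DUSP4, DUSP5, DUSP6, DUSP10, DUSP14 and DUSP16, and in the right panel 22Rv1 lies above C4-2 for DUSP4, DUSP5, DUSP6 and DUSP10.

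DUSP9, a cytoplasmic ERK phosphatase of the same family outside the list, fell in 7 of the 8 treated comparisons. From 6.41% to 38.5% of all genes were called lower in these 8. DUSP9 was followed up after its values were seen, so its count and p-values are a description. It fell in LNCaP with shCSN5 (0.476 and 0.788 CPM against 3.45 and 4.14, log2 -2.57 ± 0.29, edgeR adjusted p = 0.0018), in C4-2 (log2 -1.36, adjusted p = 0.0040) and in 22Rv1 (log2 -0.78, adjusted p = 0.0088). The C4-2 call was lost without scramble replicate 2 (adjusted p = 0.057), and the 22Rv1 call without scramble replicate 1 (0.054) and with DESeq2 (0.072). It also fell with CSN5i-3 by log2 -2.44 in LNCaP, -1.72 in 22Rv1 and -1.37 in PC3, and by -1.92 in titled C5i. In PC3 with shCSN5 it gave -0.24 ± 0.33 (adjusted p = 0.65).

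The 5 gene lists below were chosen with earlier results of these data known, so their counts and p-values are a description. The 16 other dual-specificity phosphatases, which include DUSP9, moved in both directions. With shCSN5, 4 rose and 3 fell of 12 tested in LNCaP (18.3% of all genes rose and 17.4% fell), 4 and 2 of 12 in C4-2 (15.7% and 16.2%), 4 and 2 of 13 in 22Rv1 (22.6% and 21.3%), and 0 of 11 in PC3 (10.3% and 6.41%) by edgeR, where 1 had an unadjusted p under 0.05 and DESeq2 called 0. After CSN5i-3, 6 rose and 3 fell of 13 in LNCaP (26.2% and 26.5%) and 3 and 1 of 13 in 22Rv1 (11.8% and 12.2%). PC3 gave 8 and 3 of 11 with CSN5i-3 (38.5% in each direction), and titled C5i gave 8 and 4 of 14 (37% and 37.9%). DUSP3, the small phosphatase VHR, rose by log2 0.87 in LNCaP, 0.57 in C4-2 and 0.70 in 22Rv1 with shCSN5. With CSN5i-3 it rose by log2 0.84 in LNCaP, 0.81 in 22Rv1 and 0.42 in PC3. DUSP18 rose with it in LNCaP, C4-2 and 22Rv1, by log2 1.46, 1.34 and 0.95 with shCSN5. STYX, a catalytically inactive relative that binds ERK, fell with shCSN5, by log2 -0.94, -0.75 and -0.69 in the same lines. In LNCaP the calls of DUSP3 and STYX with shCSN5 were lost without scramble replicate 1 (edgeR adjusted p = 0.11 and 0.15) or replicate 2 (0.11 and 0.087).

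Of the ERK feedback and target genes tested, 13 rose and 2 fell of 17 in 22Rv1 with shCSN5, where 22.6% of all genes were called higher and 21.3% lower, and 12 and 2 of 17 with CSN5i-3 (11.8% and 12.2%). In PC3 the counts were 4 and 1 of 17 with shCSN5 (10.3% and 6.41%) and 6 and 12 of 18 with CSN5i-3 (38.5% in each direction). LNCaP gave 4 and 1 of 13 with shCSN5 (18.3% and 17.4%) and 9 and 5 of 17 with CSN5i-3 (26.2% and 26.5%). C4-2 gave 4 and 5 of 13 with shCSN5 (15.7% and 16.2%), and titled C5i gave 9 and 6 of 16 (37% and 37.9%). Since the list was chosen with earlier results known, nothing is read from these counts beside the shares.

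The medians of this list were log2 0.95 in 22Rv1 with either agent, 0.66 and 1.06 in LNCaP, 0.24 in C4-2 and 0.46 for its titles, and 0.13 and -0.29 in PC3. In scramble cells 13 of the list's 18 genes were higher and 4 lower in PC3 than in LNCaP, where 41.6% of all genes were called higher and 38.2% lower, 79.7% in all. In 22Rv1 against C4-2, 13 of 16 were higher and 1 lower (35.5% and 29.8%, 65.2% in all). PHLDA1, an ERK-induced gene, rose in 22Rv1 from 10.3 and 9.47 CPM to 34.4 and 31.6 with shCSN5 (log2 1.74 ± 0.12, edgeR adjusted p = 1.5e-06) but fell in titled C5i (log2 -1.10 ± 0.10, adjusted p = 1.4e-06). MYC fell in 22Rv1 with both agents (log2 -1.31 and -1.38) and in LNCaP with CSN5i-3 (-1.51), and rose in PC3 with CSN5i-3 (1.13 ± 0.03). SPRY4, a Sprouty inhibitor of receptor signalling, rose with shCSN5 in LNCaP from 10.9 and 11.1 to 110 and 103 CPM.

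Ligands of the EGF receptor family lie upstream of ERK. HBEGF, the gene of heparin-binding EGF-like growth factor, rose with shCSN5 from 5.20 and 5.32 to 28.1 and 23.3 CPM in LNCaP (log2 2.29 ± 0.18, edgeR adjusted p = 0.00052) and from 4.14 and 4.52 to 26.5 and 25.3 in 22Rv1 (log2 2.58 ± 0.14). With CSN5i-3 it rose by log2 2.43 in LNCaP and 3.02 in 22Rv1, and titled C5i was higher by 2.93. In PC3 it fell with CSN5i-3 from 113 and 113 to 78.2 and 75.8 CPM (log2 -0.56 ± 0.03). With shCSN5 HBEGF rose in C4-2 by log2 1.35 ± 0.15 and gave -0.14 ± 0.11 in PC3 (edgeR adjusted p = 0.00056 and 0.43). The interaction for shCSN5 was log2 -2.48 ± 0.19 for PC3 minus LNCaP and 1.21 ± 0.16 for 22Rv1 minus C4-2. The edgeR adjusted p of these interactions was 0.00010 and 0.0023.

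TGFA, which encodes another EGF receptor ligand, rose with shCSN5 by log2 2.19 in LNCaP, 2.09 in C4-2 and 1.30 in 22Rv1, and fell in PC3 with CSN5i-3 by log2 -0.81. Of the EGF family list, 9 of 11 genes fell and 1 rose in PC3 with CSN5i-3, against 38.5% of all genes in each direction. In the other comparisons 2 to 4 rose and at most 2 fell, of 6 to 10 tested, beside the shares of all genes given for the ERK list. EGFR itself fell in 22Rv1 with shCSN5 (log2 -0.97 ± 0.08) and rose in PC3 with CSN5i-3 (0.94 ± 0.03).

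The MAP kinases and their upstream kinases also moved in both directions. All 19 upstream kinase genes were tested, and 12 rose and 4 fell in PC3 with CSN5i-3 (38.5% of all genes in each direction). In titled C5i 8 rose and 6 fell (37% and 37.9%). In the other treated comparisons 1 to 4 rose and 1 to 6 fell, beside the shares of all genes given for the ERK list. Of the 14 MAP kinase genes, 6 rose and 4 fell of 12 tested in PC3 with CSN5i-3 (38.5% of all genes in each direction), and in no treated comparison did more rise or fall. MAP2K6, the p38 kinase MKK6, was lower with shCSN5 in LNCaP (0.257 and 0.0717 CPM against 6.10 and 5.21, log2 -5.08 ± 0.40, edgeR adjusted p = 0.00052), in C4-2 (log2 -1.33) and in PC3 (-1.26), and with CSN5i-3 in LNCaP (-3.36), 22Rv1 (-1.91) and PC3 (-2.66). Titled C5i was lower by -5.99. BRAF, the kinase upstream of MEK, rose in PC3 with shCSN5 (log2 0.72 ± 0.15, edgeR adjusted p = 0.032) and with CSN5i-3 (2.13 ± 0.06). The shCSN5 call was lost without either shCSN5 library (adjusted p = 0.17 without replicate 1 and 0.10 without replicate 2).

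List counts in the knockdown depended on single libraries. Over all 5 lists 22 genes were called in LNCaP with shCSN5, against 10 and 9 without scramble replicate 1 and 2, and 46 and 50 without shCSN5 replicate 1 and 2. For PC3 with shCSN5 the count was 11, against 22 without scramble replicate 1 and 4 and 5 without shCSN5 replicate 1 and 2. In C4-2 the count was 24, against 15 without scramble replicate 1.

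**Figure D4:**
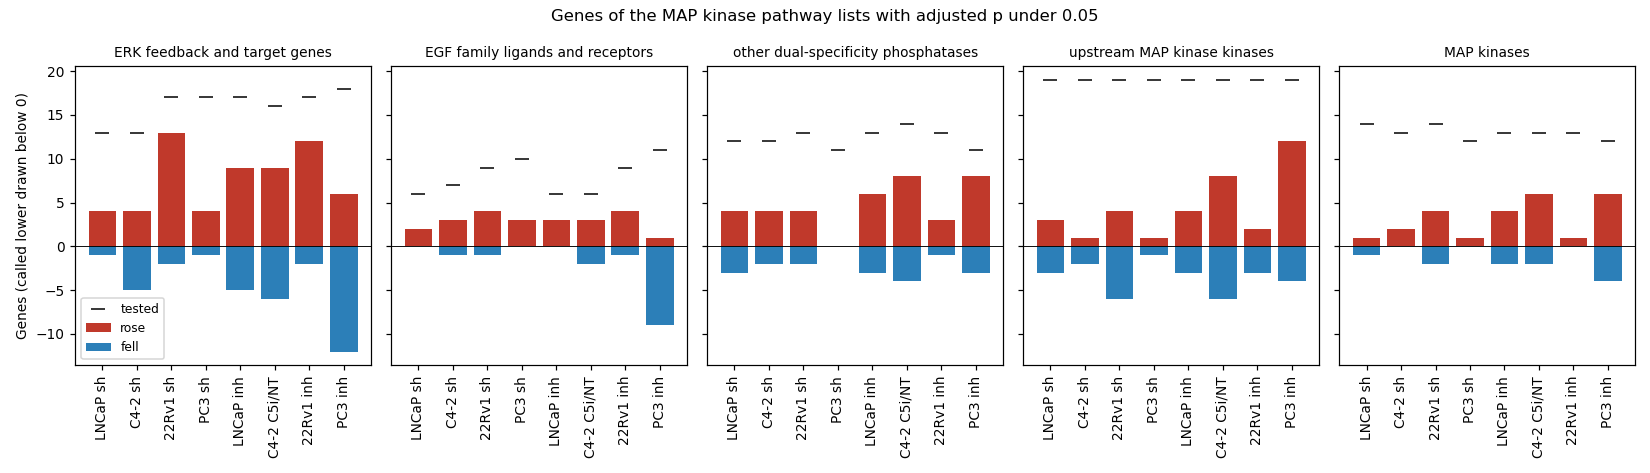
Number of genes of each of 5 MAP kinase pathway lists that rose (red, above 0) or fell (blue, below 0) with adjusted p under 0.05 in the 8 comparisons, with the number tested as a dash. In 22Rv1 the ERK feedback list had 13 risen and 2 fallen genes with shCSN5 (22.6% and 21.3% of all genes). With CSN5i-3 it had 12 and 2 there (11.8% and 12.2%), and 6 and 12 in PC3 (38.5% in each direction). C4-2 with shCSN5 had 4 and 5 (15.7% and 16.2%). The lists were chosen with earlier results known, so nothing is read from these counts.

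The genes most like DUSP5 were found over the 16 treated libraries, as Pearson's r of log2 CPM minus the mean of the matching controls among 11906 genes with at least 1 CPM on average. They were NEDD9 (r = 0.97), a scaffold of focal adhesions, ARL14 (0.97), MGLL (0.97), the monoglyceride lipase, LAMB3 (0.97), a laminin chain, and KIFC3 (0.97), a kinesin. ARL14 and KIFC3 did not pass the low-count filter with shCSN5 in LNCaP. ARL14 was fitted at log2 8.99 ± 0.71 with CSN5i-3 in LNCaP, against differences of 4.88 and 5.17 used for r. Those differences include a prior count of 2, so the r of ARL14 rests in part on values near the floor. The 16 libraries come in pairs from 8 treatments, so they are fewer independent points than their number. LAMB3 was 33.3-fold and 21.9-fold higher with CSN5i-3 in LNCaP and 22Rv1, but lower in PC3 (log2 -0.96), where DUSP5 was higher.

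Among the other members, DUSP14 (r = 0.75), DUSP1 (0.75), DUSP6 (0.70) and DUSP2 (0.66) had the highest r with DUSP5, at ranks 241, 261, 403 and 573. The differences of DUSP2 in PC3 were -1.10 and -1.76 with shCSN5 and -2.42 and -2.02 with CSN5i-3, on few reads. Its r thus rests in part on values near the floor. In LNCaP with CSN5i-3, DUSP2 was at 0.14 and 0.23 while DUSP5 was at 5.11 and 5.12. DUSP4 and DUSP10 both gave 0.34. DUSP8 (-0.07), DUSP7 (-0.32) and DUSP16 (-0.44) did not follow it.

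**Figure D5:**
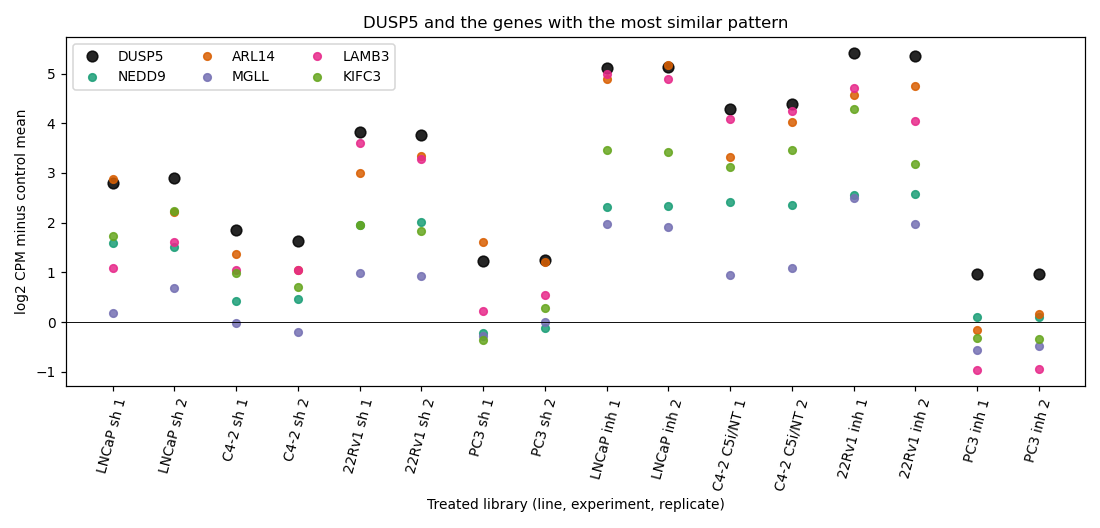
Log2 CPM minus the mean of the matching control libraries (y axis) for DUSP5 (black) and the 5 genes with the highest correlation to it, in each of the 16 treated libraries (x axis, by line, experiment and replicate). DUSP5 is above 0 in every library, while in the PC3 CSN5i-3 libraries LAMB3, MGLL and KIFC3 are below 0.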

How the data were processed

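RNA-seq read counts per gene of 32 libraries were deposited by the authors in 6 tables, as raw counts. Partek is named in the submitters' processing notes; which aligner, build and strand setting were used is not given in the sources used here. Counts were analysed in R 4.3.3 with edgeR 4.0.16 (filterByExpr with a minimum count of 10, trimmed mean of M values (TMM) scaling, quasi-likelihood test, Benjamini-Hochberg adjustment over all genes tested, threshold 0.05), on the 4 libraries of each comparison, or 8 for an interaction. DESeq2 1.42.0, total-count scaling, no filter, a replicate block and leaving out single libraries were alternatives. A standard error is the size of the log2 fold change over the root of its F statistic. Fits were tested on simulated data. CPM uses TMM over the 4 libraries of a comparison; this scaling, and matching MAP3K20 by its older symbol, were chosen after results had been seen. Levels are comparable within a comparison only. The members and lists were chosen with earlier results of these data known, so the planned tests of members between lines are given as values without p. Named genes are the 10 members, COPS5, up to 2 higher and 2 lower genes per list and comparison with the smallest adjusted p, and the 5 most like DUSP5; DUSP9 was described further, in all comparisons, after its values were seen. One cell type marker is not reported here.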

Additional observations from a re-analysis of the deposited data

Results flagged for a closer look

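The shCSN5 change passed the threshold of an interaction test between lines for some members; the members were chosen with the change in each line known, so these tests are not independent of that choice. For PC3 minus LNCaP the log2 differences were -1.35 for DUSP1, -3.10 for DUSP2, -1.49 for DUSP4, -1.72 for DUSP5, -1.24 for DUSP6, -1.44 for DUSP10, -1.23 for DUSP14 and -1.83 for DUSP16. For 22Rv1 minus C4-2 they were 0.99 for DUSP4, 2.15 for DUSP5, 1.95 for DUSP6 and 1.29 for DUSP10. Over the alternatives the PC3 minus LNCaP difference ran from -3.86 to -2.48 for DUSP2, -1.38 to -1.05 for DUSP6 and -1.34 to -0.93 for DUSP14. The terms of DUSP2, DUSP6 and DUSP14 did not pass the threshold in every fit with 1 library left out. Nothing is read from which members passed.

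Some members, in part the same, had treated libraries above the controls in some lines and below them in PC3 or LNCaP. These opposite directions were not tested over all lines together; for shCSN5 the PC3 and LNCaP pair of DUSP4 and DUSP6 is the one given above. With shCSN5 the log2 fold changes of DUSP4 spanned 2.34 and those of DUSP6 spanned 2.87, with PC3 lower and the other 3 lines higher. With CSN5i-3 the span was 4.19 for DUSP4, which was higher in 22Rv1 and lower in LNCaP and PC3. It was 3.59 for DUSP6 and 1.52 for DUSP14, both higher in LNCaP and 22Rv1 and lower in PC3. For DUSP2 it was 2.90, with LNCaP higher and PC3 lower, on few PC3 reads. CSN5i-3 was given at 10 µM in PC3 and at 5 µM in LNCaP and 22Rv1, in separate tables. Line, dose and table cannot be told apart for PC3 in these spans.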

How the results depend on the processing

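Members changed sign only for values near 0 when 1 library was left out, such as DUSP10 in C4-2 with shCSN5 (0.08 to -0.02) and DUSP2 in 22Rv1 with CSN5i-3 (0.09 to -0.35). The log2 fold change of DUSP5 ranged over the alternatives from 2.84 to 2.95 in LNCaP, 1.30 to 2.38 in C4-2, 3.83 to 3.97 in 22Rv1 and 1.19 to 1.31 in PC3 with shCSN5, and from 5.03 to 5.15, 5.35 to 5.60 and 0.96 to 0.99 in LNCaP, 22Rv1 and PC3 with CSN5i-3. Counts of genes called moved more; the cause was not tested. Without the low-count filter 3139 genes were called with shCSN5 in C4-2 (4754 with it), and 4273 in PC3 (2578), with 17 pathway genes in PC3 (11). Same-numbered libraries are not stated to be paired: with a replicate block, PC3 shCSN5 gave 8180 genes and 36 pathway genes, and the interaction of 22Rv1 and C4-2 gave 1237 genes (2262) and 10 pathway genes (16). With the block 16 calls of named genes were lost; of those printed in the report this ended DUSP3 in 22Rv1 with CSN5i-3 (edgeR adjusted p = 0.051). The correlation of same-numbered deviations ran from -0.64 to 0.54. Leaving out 1 library gave 2085 to 11260 genes and 9 to 50 pathway genes in LNCaP shCSN5 (5326 and 22), where either scramble library left out lowered the count and either shCSN5 library raised it. It gave 2941 to 3288 and 15 to 20 in C4-2, 1054 to 4566 and 4 to 22 in PC3, and 6360 to 11468 in LNCaP with CSN5i-3 (9598). The interactions gave 1916 to 4930 (4135) with 13 to 27 pathway genes (28) and 6 to 9 members for PC3 and LNCaP, and 984 to 3223 with 10 to 17 pathway genes for 22Rv1 and C4-2. Higher and lower calls were 1969 and 703 with total-count scaling and 1105 and 1163 with DESeq2 in PC3 shCSN5 (1586 and 992), and with total-count scaling 2482 and 1578 (1890 and 2245) and 1294 and 945 (941 and 1321) in the interactions. TMM over all libraries of a table, added after results had been seen, gave 8 members higher without overlap in C4-2 (7) and 4 lower in PC3 (3) with shCSN5. DUSP2 in PC3, at 1 to 9 reads in the knockdown, is limited by depth.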
